A study of Homo sapiens with 12 samples.

Results

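The ATP-binding cassette (ABC) transporters were followed in IGROV-1 cells, a long-established line from a human ovarian carcinoma, in which the chemokine receptor CXCR4 had been knocked down. The family was set by a list of 31 gene symbols, from which the antigen peptide transporters TAP1 and TAP2 were left out, and each gene was read from the brightest, on average, of the probe sets annotated with that symbol alone (single-symbol probe sets). Of the 31 genes, 30 were measured, among 19775 genes in all. ABCC6 had no single-symbol probe set and was not analysed here. RNA was hybridised to 12 Affymetrix Human Genome U133 Plus arrays, 3 in each of 4 groups. Parental cells were not transfected. Mock cells carried a plasmid with a scrambled short hairpin RNA, and the lines shCXCR4 I and shCXCR4 II (line I and line II below) carried plasmids with different hairpins against CXCR4. Per the labels, transfected cells were selected in 4 µg/ml puromycin for 30 days, Mock was kept as a pool of clones, and the CXCR4 cells were picked as individual clones. Knockdown and clonal origin therefore cannot be told apart in any comparison with Mock, and neither can selection and transfection in a comparison with Parental. All 4 groups were grown in RPMI with fetal calf serum, and no drug other than puromycin is named.

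ABC transporters couple the hydrolysis of ATP to the movement of a substrate across a membrane. Subfamily A members move lipids, subfamily B holds the multidrug pump P-glycoprotein together with transporters of mitochondria and lysosomes, and subfamily C holds the multidrug resistance proteins (MRPs), which export drugs and organic anions, many of them conjugated to glutathione. Subfamily D serves peroxisomes and lysosomes, subfamilies E and F lack membrane domains and act in translation, and subfamily G includes the breast cancer resistance protein ABCG2. In ovarian cancer the family is known above all for the efflux of taxanes, anthracyclines and other drugs.

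The deposited values are log2 expression values per probe set, and every level and difference given here is on that scale unless a percentage or fold is named. The median of an array was between 4.25 and 4.39, and Pearson correlations between arrays of one group were 0.996 to 0.998. CXCR4 itself fell to 35.6% of Mock in line I and to 25.7% in line II (limma adjusted p = 6.11e-08 and 4.38e-09), with no overlap of arrays. Of 14 epithelial and Müllerian markers, including PAX8, WT1 and EPCAM, 13 lay above the array median on all Parental, Mock and line I arrays. The exception in each of these groups was MUC16. In line II 12 did, with MUC16 and MSLN the exceptions. The mean log2 level of the list was 8.28 to 8.35 there against 8.51 to 8.69 on the other arrays. The mean log2 level of 8 leukocyte markers was 3.63 to 3.93 on single arrays. Of them, 1 (CD3E) lay above the array median in each control, 3 in line I (CD3E, CD3D and ITGAM) and 2 in line II (CD3E and ITGAM). The mean level of 6 fibroblast markers was 4.17 to 4.49, that of 6 endothelial markers 4.08 to 4.30, and that of 7 hepatocyte and enterocyte markers 4.36 to 4.66, with 3 of each list above the median in every group. In the order of these lists, they were COL1A1, COL1A2 and DCN, then PECAM1, VWF and TEK, then TTR, SERPINA1 and VIL1. By group the leukocyte level was 3.74 to 3.84 for Parental, 3.63 to 3.76 for Mock, 3.86 to 3.93 for line I and 3.80 to 3.87 for line II, and the part of these marker levels in any difference below was not tested. Nothing in the labels says that the arrays of a group came from separate cultures, so the p-values rest on the spread among 3 arrays a group, which may be technical, and the number of arrays limits the precision.

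Among the 30 ABC genes, 18 differed among the 4 groups by limma's F test (Benjamini-Hochberg adjusted p under 0.05 over all genes), against 35.1% of all genes tested. In line I against Mock, 9 ABC genes were called, against 23.6% of all genes. Of them 2 rose and 7 fell, where 9.97% of all genes rose and 13.6% fell. In line II against Mock, 13 were called, against 26.1% of all genes, and 2 rose and 11 fell, where 11.0% of all genes rose and 15.1% fell. Both comparisons use the same Mock arrays. In Mock against Parental, 10 were called (15.0% of all genes), and 7 rose and 3 fell, where 9.78% of all genes rose and 5.23% fell. Against Parental, 9 were called in line I (16.8% of all genes), 2 up and 7 down (8.25% and 8.56% of all genes), and 11 in line II (17.0%), 2 up and 9 down (7.47% and 9.48%). The 3 comparisons with Parental share its arrays.

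The median log2 difference of the ABC genes from Mock was -0.14 for line I and -0.08 for line II, where that of all genes was 0.02 for each, and it was 0.05 in Mock against Parental, where that of all genes was 0.00045. Changes were mostly small. ABCB1 in line I against Mock, ABCA1 in Mock against Parental and ABCA1 in line II against Parental were the called differences of at least 2-fold. Other scalings shifted the split by direction. Quantile normalization left 2 up and 4 down in line I against Mock (20% of ABC genes, 19.9% of all genes). In line II it left 1 up and 7 down (26.7% and 20.9%). Centring each array on its median gave 1 up and 11 down in line I (40% and 24.5%). It gave 0 up and 12 down in line II (40% and 27.4%). Without line I replicate 1 the count in line I against Mock fell from 9 to 5 (16.7% of ABC genes), below the 17.9% of all genes. For Mock against Parental, quantile normalization left 5 up and 3 down (26.7% of ABC genes, 13.3% of all genes). The count fell from 10 to 5 without Parental replicate 3 (10.5% of all genes) and to 6 without Mock replicate 3 (11.5%). For line II against Parental the count fell from 11 to 6 without Parental replicate 2 (11.2% of all genes). It fell to 7 without line II replicate 1 (13.8% of all genes). Centring gave 2 up and 10 down in that comparison (15.8% of all genes).

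**Figure D1:**
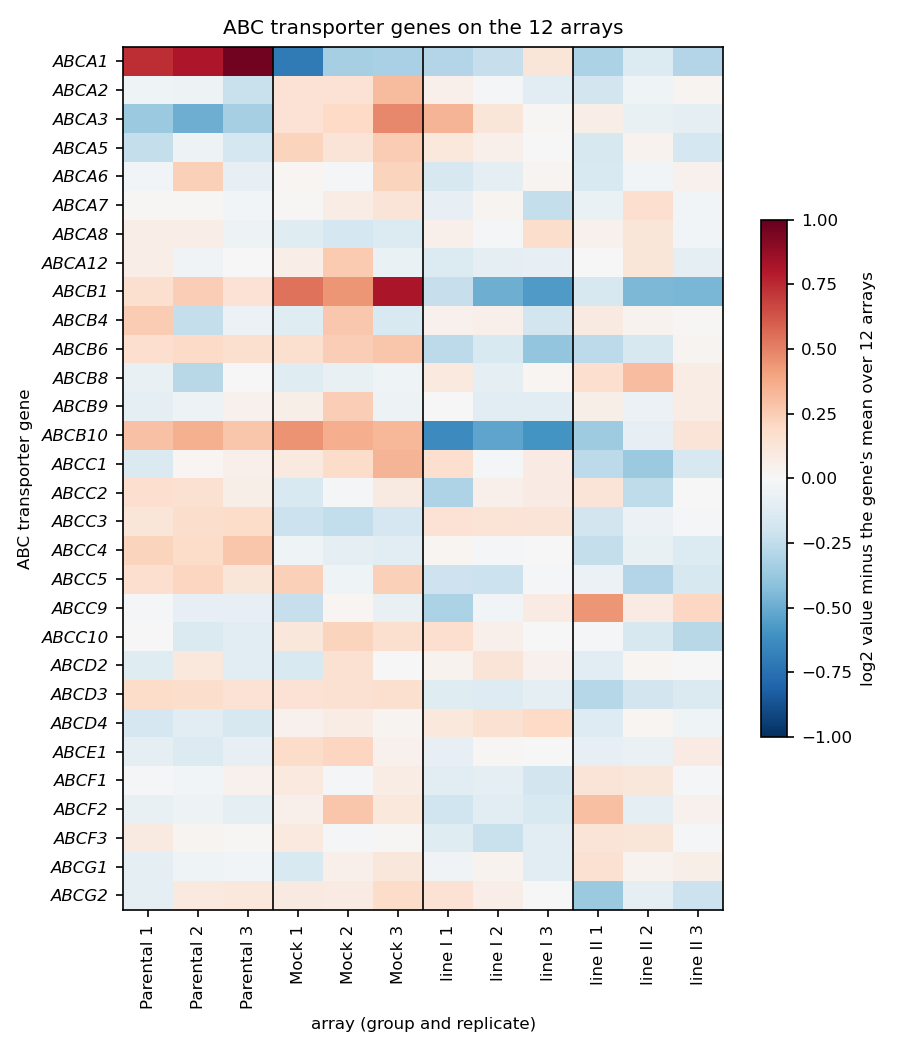
Log2 value of each of the 30 ABC genes on each of the 12 arrays, minus that gene's mean over the arrays (colour, from -1 to 1); columns are arrays by group and rows are genes by subfamily. ABCB1 and ABCB10 are red on all 6 control arrays and blue on all arrays of line I, ABCB10 is blue to near white in line II with 1 array slightly above the mean, and ABCA1 is red on the 3 Parental arrays.

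ABCB1, which encodes the drug efflux pump P-glycoprotein, was lower in both CXCR4 lines than in either control. Its log2 values were 3.33, 3.41 and 3.32 on the Parental arrays and 3.71, 3.61 and 3.99 on the Mock arrays. Line I had 2.94, 2.68 and 2.60, and line II had 3.01, 2.72 and 2.71. All 6 arrays of the lines lay below all 6 control arrays, an order seen in 6.03% of all genes. Line I differed from Mock by -1.03 (SE 0.11, limma adjusted p = 2.47e-05), which left 49.1% of the Mock value. Line II differed by -0.95 (SE 0.11, limma adjusted p = 5.36e-05) and kept 51.6%. Against Parental it was -0.61 (limma adjusted p = 0.00177) and -0.54 (limma adjusted p = 0.00472), so the fall was smaller by that control. The arrays average over a culture, so less ABCB1 RNA per cell and fewer cells that express it cannot be told apart. Mock itself exceeded Parental by 0.42 (limma adjusted p = 0.0236), a call that ended without Parental replicate 1 (0.07) or 3 (0.0753) or Mock replicate 3 (0.098). The lines differed by -0.07, with a 95% interval from -0.31 to 0.17.

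All ABCB1 values lay below the array medians, so the signal is weak and the size of the fold describes the deposited values only. A second, dimmer ABCB1 probe set, 243951_at, had -0.21 and -0.23 in lines I and II against Mock and passed in neither. ABCB4, the close relative of ABCB1 that exports phosphatidylcholine into bile, had group means between 3.40 and 3.47, each with an SD of 0.04 to 0.25 (n = 3). None of its comparisons passed the test.

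ABCG2, a half-transporter that works as a dimer and exports many cytotoxic drugs, was lower in line II. The Parental arrays read 3.55, 3.74 and 3.75 and the Mock arrays 3.73, 3.73 and 3.83. The arrays of line I read 3.79, 3.71 and 3.64 and those of line II 3.28, 3.55 and 3.43. Line II lay below Mock on every array, at -0.35 (SE 0.08, limma adjusted p = 0.00739), or 78.6% of the Mock value. Line I had -0.05 against Mock, with a 95% interval from -0.22 to 0.13. The direct comparison of the lines gave 0.30 higher in line I (limma adjusted p = 0.0423), where 4.66% of all genes were higher in line I. That call was narrow. It ended without any 1 of 9 arrays, namely Parental replicates 2 and 3, Mock replicates 1 and 2, all 3 of line I, and line II replicates 1 and 3, with adjusted p between 0.0527 and 0.16. It also ended with a replicate block (0.0533), centring (0.0501), a trended and robust variance (0.0657), no _x_at or _s_at probe sets in the table (0.0569) and the lines fitted alone (0.1). Against Parental, line II had -0.26 (limma adjusted p = 0.0395), which ended without Parental replicate 2 (0.136) or 3 (0.14), line I replicate 2 (0.0542) or line II replicate 1 (0.145) or 3 (0.0608), with the trended and robust variance (0.0689) and with these groups fitted alone (0.0938). ABCG2 too lay below the array medians on all 12 arrays.

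Among the MRPs, ABCC1 (MRP1, an exporter of glutathione conjugates and of drugs such as anthracyclines) fell in line II. It read 7.56, 7.73 and 7.76 on the Parental arrays and 7.80, 7.89 and 8.05 on the Mock arrays. It read 7.87, 7.70 and 7.79 for line I and 7.45, 7.34 and 7.55 for line II. Every line II array was below every other array. The difference of line II from Mock was -0.47 (SE 0.08, limma adjusted p = 0.00145), which left 72.2%, and the second probe set, 202805_s_at, had -0.35 and also passed. Line I had -0.13 against Mock (95% interval -0.31 to 0.05), and the lines differed by 0.34 (limma adjusted p = 0.0267). The difference between the lines no longer passed without line I replicate 1 (0.115) or 3 (0.0781) or line II replicate 1 (0.0674) or 2 (0.11), or when only the lines' arrays were fitted (0.0528). Against Parental, line II had -0.24, which did not pass (limma adjusted p = 0.0725).

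The other MRPs had smaller differences and not in one direction. ABCC3 (MRP3, an exporter of glucuronides and bile salts) was lowest in Mock, at 5.98 ± 0.04, against 6.34 ± 0.03 for Parental, 6.32 ± 0.01 for line I and 6.10 ± 0.09 for line II (mean ± SD, n = 3). Mock was lower than Parental by -0.37 (limma adjusted p = 0.000887), and line I was higher than Mock by 0.34 (limma adjusted p = 0.000968), so that line I and Parental differed by -0.02. Line II was lower than Parental, at -0.25 (limma adjusted p = 0.0113), and had 0.12 against Mock. The line II call ended with the mean of the probe sets (-0.10, 0.289) and when only the arrays of line II and Parental were fitted (0.0521). Line I exceeded line II by 0.22 (limma adjusted p = 0.0384), which ended without any 1 of the Parental or line I arrays or line II replicates 1 and 2 (adjusted p between 0.054 and 0.122) and with a replicate block (0.0551), centring (0.0601), the mean of the probe sets (0.391) or the lines fitted alone (0.131). Of its 5 probe sets, 208161_s_at showed larger differences, -0.88 in Mock against Parental and 0.66 in line I against Mock. It also passed in line II against Mock, at 0.41 (limma adjusted p = 0.0244 over probe sets). On the one probe set with no _s_at or _x_at ending, 242553_at, Mock against Parental gave -0.06 and line I against Mock 0.17, and neither passed. There line II exceeded Mock by 0.31 (limma adjusted p = 0.018 over probe sets) and had 0.25 against Parental. The sign between the lines turned on 242553_at, with line I at -0.14 against line II, which did not pass.

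ABCC4 (MRP4, an exporter of cyclic nucleotides and prostanoids) was highest in Parental. Parental averaged 8.74 ± 0.05, Mock 8.43 ± 0.03, line I 8.51 ± 0.02 and line II 8.36 ± 0.08. Mock (-0.31, limma adjusted p = 0.00325), line I (-0.23, 0.0162) and line II (-0.38, 0.00059) were each lower than Parental, and neither line passed against Mock (0.08 and -0.07). The mean of the 4 ABCC4 probe sets gave -0.30, -0.22 and -0.22, and none passed (limma adjusted p = 0.0621, 0.159 and 0.162). The line I call also ended under quantile normalization (0.056) and without Parental replicate 3 (0.0751) or line I replicate 2 (0.0578) or 3 (0.0544).

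ABCC5 (MRP5, also an exporter of cyclic nucleotides) fell in both lines on the probe set that represents it, at -0.29 (line I) and -0.32 (line II) against Mock (limma adjusted p = 0.0311 and 0.0198) and -0.31 and -0.34 against Parental (limma adjusted p = 0.0285 and 0.0194). The other ABCC5 probe sets did not pass there. On 226363_at the differences from Mock were 0.18 and 0.20, and on 1558460_at -0.13 and 0.17. Quantile normalization ended all 4 calls (limma adjusted p between 0.0725 and 0.185), as did the mean of the 3 probe sets (-0.08 and 0.02 against Mock, -0.10 and 0.00 against Parental). Fitting the compared groups alone ended both calls against Mock (0.0591 and 0.0604). Leaving out 1 array ended the line I call against Mock for Mock replicates 1 and 3 and line I replicates 1 and 2, and the line II call for Mock replicates 1 and 3 and line II replicate 2 (adjusted p between 0.0664 and 0.109). Against Parental the same held for all Parental replicates and line I replicates 1 and 2 in line I, and for Parental replicate 2 and line II replicate 2 in line II (adjusted p between 0.0557 and 0.105).

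ABCC10 (MRP7, linked to taxane efflux) fell in line II, at -0.32 against Mock (limma adjusted p = 0.00992), where line I had -0.09. Mock averaged 6.85 ± 0.06, Parental 6.60 ± 0.08, line I 6.75 ± 0.09 and line II 6.53 ± 0.14. The line II call ended under quantile normalization, at -0.21 (0.0876). On the second ABCC10 probe set, 215873_x_at, the differences from Mock were 0.05 in line I and -0.08 in line II, and neither passed. Mock exceeded Parental by 0.25 (limma adjusted p = 0.0467), which ended without any 1 of Parental replicates 2 and 3, the Mock replicates, line I replicates 2 and 3 and line II replicate 2 (adjusted p between 0.0552 and 0.151), under quantile normalization (0.192) and with the mean of the probe sets (0.116). ABCC2, the canalicular exporter MRP2, had means between 2.84 and 3.02 and passed in no comparison. ABCC9, a regulatory subunit of ATP-sensitive potassium channels rather than a pump, had means of 3.67 ± 0.13 in Mock and 4.01 ± 0.18 in line II. Its rise of 0.34 (limma adjusted p = 0.035) ended without Mock replicate 1 (0.115) or 3 (0.07) or line II replicate 1 (0.142) or 3 (0.0503), under quantile normalization (0.0981), after centring (0.0807), with the mean of the probe sets (0.187) and with the compared groups alone (0.0586). None of the 4 other ABCC9 probe sets passed. ABCC2 and ABCC9 lay below the array medians on all arrays.

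**Figure D2:**
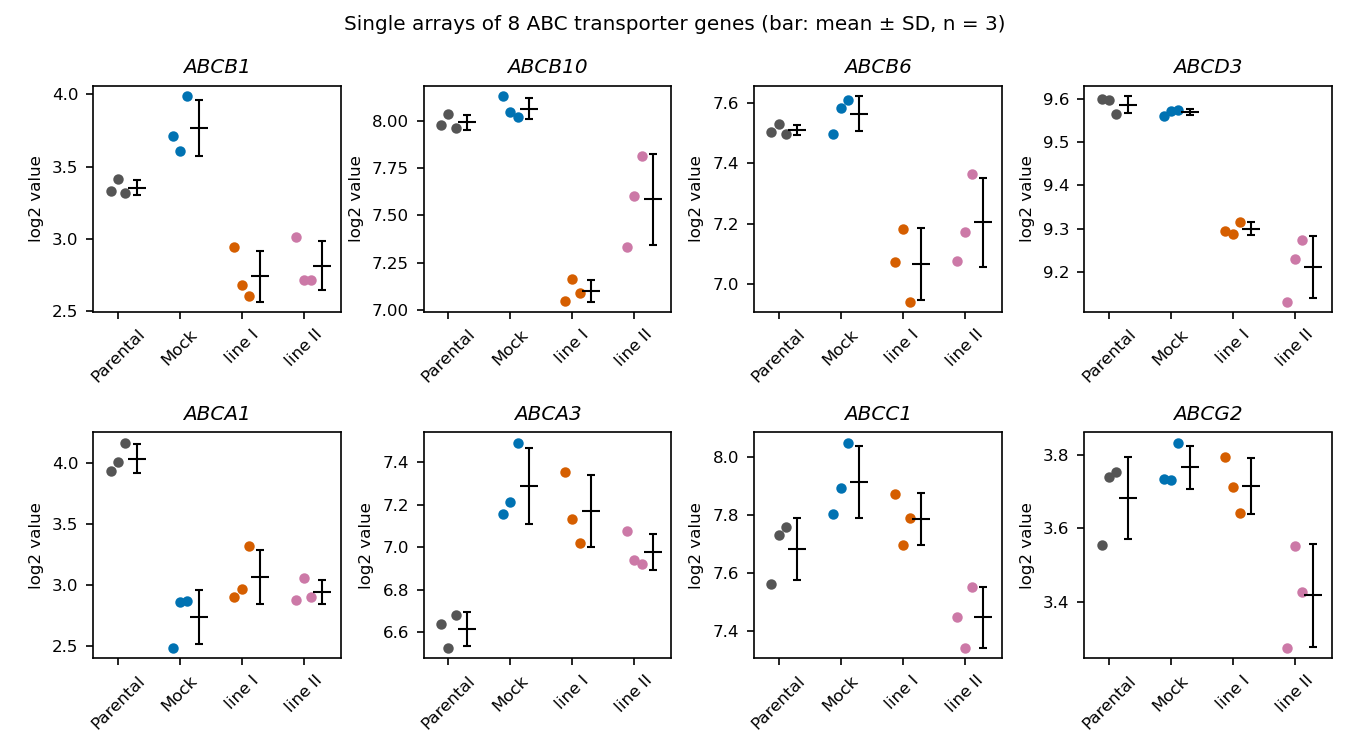
Log2 value on single arrays (coloured points) with the group mean and SD (black, n = 3) for 8 ABC genes; each panel has its own vertical axis, which does not start at 0. In the 4 upper panels every point of lines I and II is below every Parental and Mock point, and in the ABCA1 panel the 3 Parental points (3.93 to 4.16) stand above all others.

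In subfamily B, ABCB10 and ABCB6 fell in both lines. ABCB10, a transporter of the inner mitochondrial membrane needed for haem synthesis in red cell precursors, had 7.98, 8.04 and 7.97 on the Parental arrays and 8.13, 8.05 and 8.02 on the Mock arrays. Its values fell to 7.05, 7.16 and 7.09 for line I and 7.33, 7.61 and 7.82 for line II. The controls were tight and alike, line I was lowest with no overlap, and line II lay between. Line I was at -0.97 against Mock (SE 0.10, limma adjusted p = 9.86e-06) and line II at -0.48 (SE 0.10, limma adjusted p = 0.00271), which left 51.1% and 71.5%. Against Parental the differences were -0.90 and -0.41 (limma adjusted p = 2.17e-05 and 0.00956). The direct comparison put line I below line II by -0.49 (SE 0.10, limma adjusted p = 0.00754), where 2.48% of all genes were lower in line I. All 5 of these calls held without any one of the 12 arrays and under each alternative in which the gene was tested. ABCB10 is read by 1 probe set, of the _s_at kind, so no second probe set checks it.

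ABCB6, linked to the transport of porphyrins and found in mitochondrial and other membranes, also fell in both lines. Its largest difference between group means, 0.495, was just under the 0.5 set for printing single arrays, and they are given because all arrays of the lines lay below all control arrays. The control arrays read 7.50, 7.53 and 7.50 (Parental) and 7.50, 7.58 and 7.61 (Mock). Those of the lines read 7.08, 7.18 and 6.94 (line I) and 7.08, 7.17 and 7.36 (line II). Against Mock the differences were -0.50 (SE 0.08, limma adjusted p = 0.000603) and -0.36 (SE 0.08, limma adjusted p = 0.00575), and against Parental -0.44 and -0.31 (limma adjusted p = 0.00159 and 0.0187). The lines differed by -0.14 (95% interval -0.31 to 0.04). The mean of both ABCB6 probe sets, of which 203191_at is dim (3.09 to 3.22), ended the line II calls at -0.21 and -0.19 (limma adjusted p = 0.0529 and 0.105). The line II call against Parental also ended without Parental replicate 2 (0.0638) or 3 (0.0516) or line II replicate 1 (0.0732) or 2 (0.0621).

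ABCB8, part of an ATP-sensitive potassium channel of the inner mitochondrial membrane, went the other way in line II. It averaged 4.84 ± 0.12 there, 4.66 ± 0.09 for line I, 4.58 ± 0.04 for Mock and 4.54 ± 0.14 for Parental. Line II was higher by 0.26 against Mock (limma adjusted p = 0.035) and by 0.30 against Parental (limma adjusted p = 0.0253). The first call ended without any 1 Mock array or line II replicate 1 or 2 (adjusted p between 0.0583 and 0.137) under both rescalings (0.0983 and 0.116), with a trended and robust variance (0.051) and with the compared groups alone (0.0592). The second ended without Parental replicate 2 (0.12) or line II replicate 1 (0.051) or 2 (0.106), and with those groups alone (0.0691). ABCB9, a lysosomal peptide transporter, had means between 4.94 and 5.10 and passed in no comparison.

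Of the peroxisomal members, ABCD3 (PMP70, an importer of long and branched fatty acids and bile acid precursors) fell in both lines. The controls read 9.60, 9.60 and 9.56 (Parental) and 9.56, 9.57 and 9.57 (Mock), line I 9.29, 9.29 and 9.32, and line II 9.13, 9.23 and 9.27. The 6 control arrays spanned a narrow range, and all arrays of the lines lay below it. The differences were -0.27 (SE 0.05, limma adjusted p = 0.00325) and -0.36 (SE 0.05, limma adjusted p = 0.000487) against Mock and -0.29 and -0.37 against Parental (limma adjusted p = 0.00244 and 0.000358). The second probe set, 1554878_a_at, had -0.26 and -0.12 against Mock and passed in neither, and the mean of both gave -0.27 and -0.24 (limma adjusted p = 0.0579 and 0.0831). By that mean the line II call against Parental ended too (-0.27, 0.0689). ABCD2, a relative of the adrenoleukodystrophy transporter, had means between 1.76 and 1.87, near the floor of the arrays, and passed in no comparison.

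ABCD4, which works in lysosomes in the handling of cobalamin, was higher than Parental in line I by 0.30 (limma adjusted p = 0.0025) and in Mock by 0.20 (limma adjusted p = 0.0358). Parental averaged 6.67 ± 0.03, Mock 6.87 ± 0.03, line I 6.98 ± 0.05 and line II 6.77 ± 0.07. The mean of its probe sets ended the line I call, at 0.16 (0.0946), and turned the Mock difference to -0.03 (0.785). The Mock call also ended under quantile normalization (0.165) and without any 1 Parental or Mock array or line I replicate 2 (adjusted p between 0.053 and 0.11).

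ABCB1, ABCB10, ABCB6 and ABCD3 were the 4 of 30 ABC genes whose 6 line arrays all lay below the 6 control arrays. That order was seen in 6.03% of all genes. The opposite order was seen in 0 of the 30 and in 3.50% of all genes. For these 4 genes, picked by that order, the 250 bases before the start are printed below. Those of ABCA1, the gene with the largest difference between group means, are added. The windows are from RefSeq on GRCh38.p14, run 5′ to 3′ on the gene's strand and end at the base before the start. Of the 30 measured genes, 25 had a window, some more than 1, which gave 36 windows. Capitals mark matches to the GC box (GGGCGG or CCGCCC), the CCAAT box (CCAAT or ATTGG), the E-box CACGTG and the letters TATAAA or TTTATA, on both strands, and neighbouring or overlapping matches run together.
ABCB1 (chr7:87600885-87601134, minus strand): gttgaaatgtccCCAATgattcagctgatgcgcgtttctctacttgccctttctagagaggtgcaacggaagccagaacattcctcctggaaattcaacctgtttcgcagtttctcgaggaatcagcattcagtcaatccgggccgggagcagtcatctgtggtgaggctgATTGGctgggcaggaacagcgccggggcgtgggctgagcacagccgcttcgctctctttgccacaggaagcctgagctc
ABCB10 (chr1:229558708-229558957, minus strand): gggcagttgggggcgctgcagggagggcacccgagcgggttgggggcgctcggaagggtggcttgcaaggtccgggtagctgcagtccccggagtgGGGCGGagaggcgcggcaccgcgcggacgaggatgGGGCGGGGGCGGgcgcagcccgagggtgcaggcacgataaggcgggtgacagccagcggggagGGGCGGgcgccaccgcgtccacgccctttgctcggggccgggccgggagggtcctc
ABCB6 (chr2:219218959-219219208, minus strand): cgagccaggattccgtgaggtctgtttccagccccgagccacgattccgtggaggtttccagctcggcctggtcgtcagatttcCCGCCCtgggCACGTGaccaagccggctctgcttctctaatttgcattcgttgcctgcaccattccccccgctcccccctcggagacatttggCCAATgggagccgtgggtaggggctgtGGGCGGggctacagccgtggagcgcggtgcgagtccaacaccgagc
ABCD3 (chr1:94418139-94418388, plus strand): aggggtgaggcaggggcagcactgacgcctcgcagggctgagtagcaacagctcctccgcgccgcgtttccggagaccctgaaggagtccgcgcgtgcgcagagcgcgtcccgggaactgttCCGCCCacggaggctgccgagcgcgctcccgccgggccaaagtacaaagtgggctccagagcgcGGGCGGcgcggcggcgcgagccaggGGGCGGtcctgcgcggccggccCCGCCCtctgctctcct
ABCA1 (chr9:104928156-104928405, minus strand): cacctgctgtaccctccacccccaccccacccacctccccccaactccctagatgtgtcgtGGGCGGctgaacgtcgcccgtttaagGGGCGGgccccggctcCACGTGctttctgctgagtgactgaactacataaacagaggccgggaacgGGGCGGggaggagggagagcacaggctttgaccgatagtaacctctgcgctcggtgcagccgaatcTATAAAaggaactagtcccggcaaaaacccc

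The 5 windows differ in composition. The ABCB1 window printed is 55.6% G and C and holds CCAAT 238 bases and its reverse ATTGG 79 bases before the start, with no GC box, and a second ABCB1 start in the table, not printed, has none of the 4 motifs. The ABCB10 window is 77.2% G and C and holds 4 GC boxes and the ABCD3 window, at 74.4%, also 4, and neither has another of these motifs. ABCB6 has 2 GC boxes, 1 CCAAT box and 1 E-box. ABCA1 has 3 GC boxes, 1 E-box and TATAAA beginning 31 bases before the start. Thus no one of the 4 motifs was in all of the printed windows of genes that fell. Among all 35116 windows of this length, 42.6% held a GC box, 32.0% a CCAAT box, 6.34% the E-box and 10.7% the TATA letters, against 61.1%, 25.0%, 22.2% and 11.1% of the 36 ABC windows. A match describes letters only, and whether any factor binds there was not measured.

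Of the 8 measured genes of subfamily A, ABCA1 and ABCA3 passed in all 3 comparisons with Parental, in opposite directions. ABCA1, which loads cellular cholesterol and phospholipid onto apolipoprotein A-I, read 3.93, 4.01 and 4.16 on the Parental arrays. It read 2.48, 2.86 and 2.87 for Mock, 2.91, 2.97 and 3.32 for line I and 2.88, 3.06 and 2.90 for line II. No Parental array overlapped any other. Mock was at -1.29 (SE 0.12, limma adjusted p = 8.59e-06), line I at -0.97 (SE 0.12, limma adjusted p = 8.03e-05) and line II at -1.09 (SE 0.12, limma adjusted p = 3.46e-05) against Parental, which left 40.8%, 51.1% and 47.1% of the Parental value. Against Mock, lines I and II had 0.32 and 0.21 and did not pass (limma adjusted p = 0.0694 and 0.227).

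ABCA1 is read by 4 probe sets, all of them below the array medians in every group. The probe set 203505_at gave almost the same differences from Parental, -1.14, -1.10 and -1.16, each past the test. The remaining ones, 216066_at (-0.14, 0.02 and 0.12) and 1570279_at (0.14, 0.05 and 0.00), did not pass against Parental, though 216066_at was higher in line II than in Mock by 0.27 (limma adjusted p = 0.0149 over probe sets), and when probe sets ending in _s_at or _x_at were left out the gene was represented by 216066_at.

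ABCA3, a lipid transporter of lamellar bodies and lysosome-related organelles, ran opposite to ABCA1. The Parental arrays read 6.64, 6.53 and 6.68, those of Mock 7.16, 7.21 and 7.49, those of line I 7.35, 7.13 and 7.02 and those of line II 7.08, 6.94 and 6.92. Parental was the lowest group with no overlap. Mock exceeded Parental by 0.67 (SE 0.10, limma adjusted p = 0.000482), line I by 0.55 (SE 0.10, limma adjusted p = 0.00155) and line II by 0.36 (SE 0.10, limma adjusted p = 0.0241). The line II call ended without Parental replicate 1 (0.0514) or 2 (0.097) or line II replicate 1 (0.0861) or 2 (0.0511). Line II was also lower than Mock by -0.31 (limma adjusted p = 0.0371), which ended under quantile normalization (0.21), with these groups alone (0.0648) and without Mock replicate 2 (0.0523) or 3 (0.147) or line II replicate 2 (0.103) or 3 (0.0845).

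ABCA5 and ABCA2, both linked to lipid handling in lysosomes and endosomes, were highest in Mock. ABCA5 averaged 4.80 ± 0.10 in Parental and 5.15 ± 0.07 in Mock, and line II had 4.85 ± 0.12. Mock exceeded Parental by 0.36 (limma adjusted p = 0.00543), and line II was lower than Mock by -0.30 (limma adjusted p = 0.0102). Averaged over both ABCA5 probe sets, the line II difference was -0.09 (0.324). ABCA2 averaged 6.26 ± 0.10 in Mock and between 5.95 and 6.03 in the other groups. Mock exceeded Parental by 0.31 (limma adjusted p = 0.0188), and line II was lower than Mock by -0.27 (limma adjusted p = 0.0243). These ABCA2 calls rest on 1 of its 3 probe sets and ended with their mean (0.102 and 0.14). The first ended without Parental replicate 3 (0.09) or Mock replicate 3 (0.0808), and the second without Mock replicate 3 (0.0949) or line II replicate 1 (0.0943) or 2 (0.0512), under quantile normalization (0.0743) and with the compared groups alone (0.0641). On its 1 probe set without an _s_at ending the differences were 0.04 and 0.09.

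The other subfamily A genes and ABCG1 gave little. ABCA8 rose by 0.21 in line I against Mock (limma adjusted p = 0.0328) at a mean of 2.40 in Mock and 2.62 in line I, and the call ended with a replicate block (0.0532), the mean of the probe sets (0.101) or a trended and robust variance (0.0767), under both rescalings (0.0762 and 0.127) and without any 1 Mock array or line I replicate 1 or 3 (adjusted p between 0.0539 and 0.146). ABCA6 (means 2.46 to 2.61), ABCA12 (2.05 to 2.24) and ABCA7 (6.72 to 6.89) passed in no comparison. ABCG1, which exports cholesterol to high-density lipoprotein and often responds with ABCA1 to the sterol receptors of the LXR type, had group means between 3.40 and 3.53 and passed in no comparison. ABCG1 lay below the array medians on all 12 arrays. Its difference between Mock and Parental was 0.06, with a 95% interval from -0.10 to 0.22. Whether the LXR receptors took part in any difference was not tested.

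Of the 4 genes of subfamilies E and F, 2 (ABCE1 and ABCF3) differed among the groups by the F test, where 35.1% of all genes did. ABCE1, which splits ribosomes after termination, exceeded Parental in Mock by 0.25 (limma adjusted p = 0.0214), with means of 9.01 ± 0.03 and 9.26 ± 0.09, and its second probe set had 0.22 and also passed. That call ended without any 1 Parental array (0.0525 to 0.0782) or Mock replicate 1 (0.0624) or 2 (0.0853). ABCF2 was lower in line I than in Mock by -0.30 (limma adjusted p = 0.0275), with Mock at 8.80 ± 0.12. The same difference, -0.30, was measured on 207622_s_at, whereas 209246_at had 0.06. The ABCF2 call ended without Mock replicate 2 (0.115) or line I replicate 1 (0.0851) or 3 (0.071) under quantile normalization (0.149) and with the mean of the 5 probe sets (-0.11, 0.235).

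ABCF3 was lowest in line I, at -0.19 against Mock (limma adjusted p = 0.0498) and -0.23 against line II (limma adjusted p = 0.0464). Both calls ended with a replicate block (0.055 and 0.057), under quantile normalization (0.464 and 0.0531), with the compared groups alone (0.066 and 0.133) and without any 1 of 10 arrays. These arrays were all 3 of Parental and of line I and line II replicate 2 for both calls, with all 3 of Mock for the first (adjusted p between 0.0569 and 0.168), and Mock replicates 2 and 3 and line II replicate 1 for the second (0.053 to 0.185). ABCF1, which binds the initiation factor eIF2, had means of 8.13 ± 0.06 in Mock and 7.95 ± 0.05 in line I and did not pass (limma adjusted p = 0.057).

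**Figure D3:**
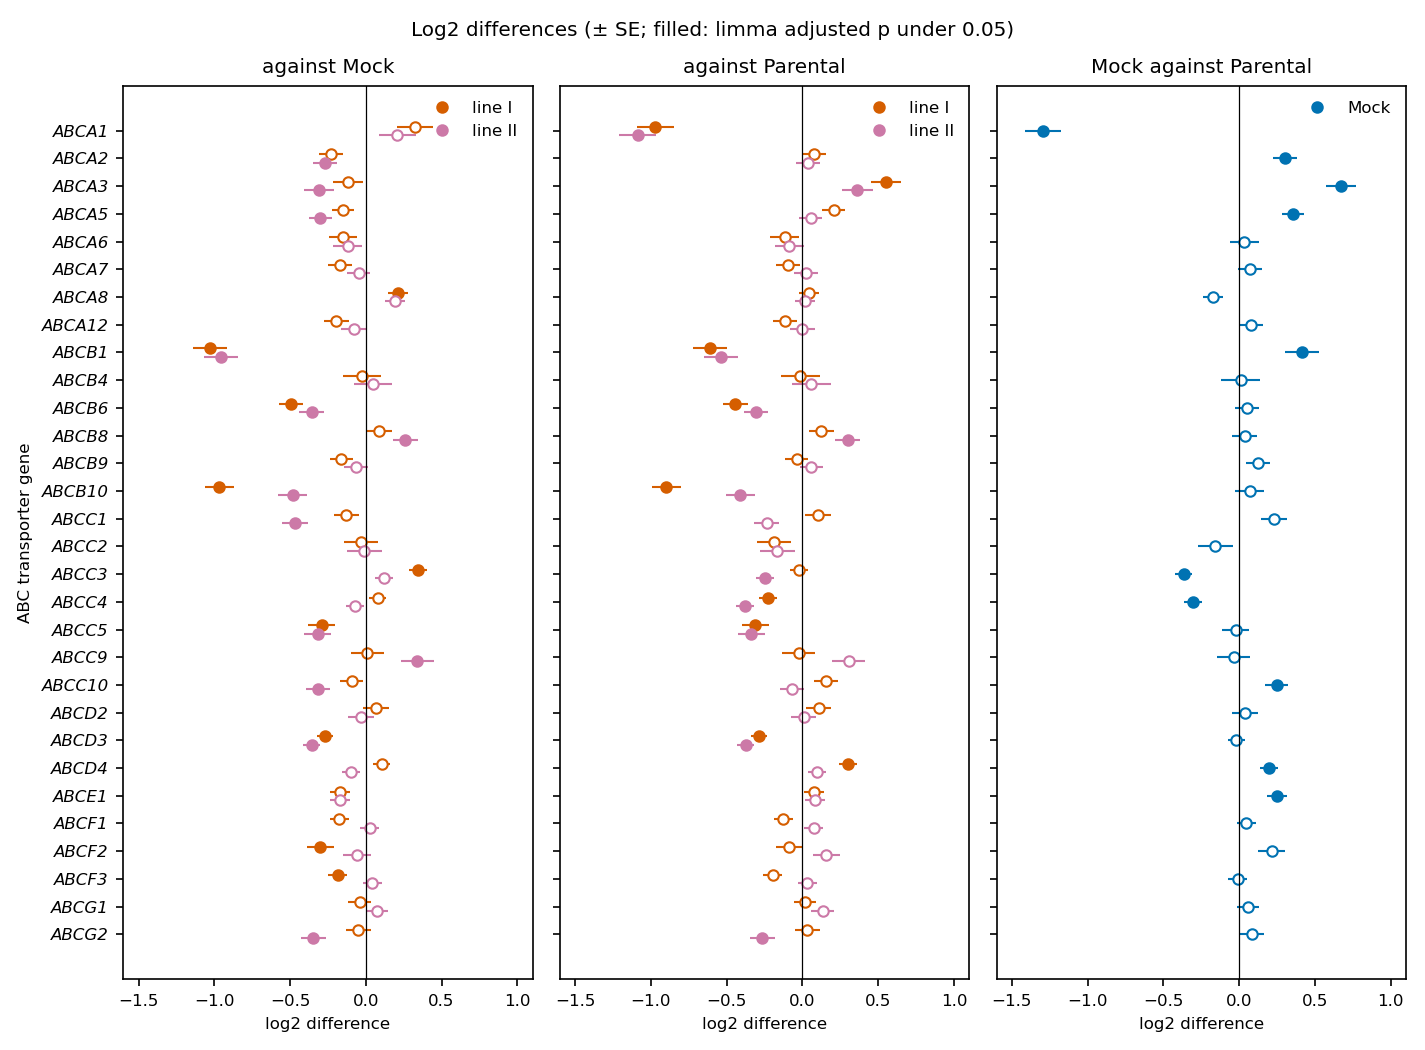
Log2 differences of the 30 ABC genes (horizontal axis, ± SE) for lines I and II against Mock (left), the lines against Parental (middle) and Mock against Parental (right); filled points passed limma's test at an adjusted p under 0.05. ABCB1, ABCB6, ABCB10, ABCC5 and ABCD3 are filled and left of 0 for both lines in the left and middle panels, and ABCA1 is the point farthest from 0 in the right panel, at -1.29. The lines share the Mock arrays in the left panel, and all 3 groups share the Parental arrays in the others.

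Direct comparison of the lines called 5 of the 30 ABC genes, against 7.15% of all genes. ABCC1, ABCC3 and ABCG2 were higher in line I, and ABCB10 and ABCF3 were lower. Of these, only ABCB10 passed without every one of the 12 arrays in turn. The count fell to 1 (3.33%) without line I replicate 1 or 3, below the 3.89% and 4.62% of all genes. It was 2 (6.67%) without Parental replicate 2 or 3, against 6.03% and 6.00% of all genes. It was also 2 without line I replicate 2 (3.99% of all genes) or line II replicate 1 or 2 (5.05% and 4.45%). Without Parental replicate 1 (6.14% of all genes) or Mock replicate 2 (6.84%) it was 3 (10%). With a replicate block it was 2 (6.14% of all genes).

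Most calls of genes with several probe sets were not shared by another probe set of the gene. The 30 genes carry 69 single-symbol probe sets, 10 genes have 1 and 20 have several, and 15 genes are represented by an _s_at or _x_at probe set, which can bind several transcripts. For genes with several probe sets there were 43 calls over the 6 contrasts. In 9 of them another probe set also passed in the same direction, in 0 another passed in the opposite direction, and in 34 no other probe set passed (limma, p adjusted over all single-symbol probe sets). Counted by signal, of the 30 genes, 19 lay above the array median on all 12 arrays, and 15 of these differed among the groups. The other 11 lay below it on all arrays, and 3 of these (ABCA1, ABCB1 and ABCG2) differed. Brighter genes passed more often in general. In the upper 50% by mean log2, 65.2% of all genes and 15 of 16 ABC genes passed the F test. Without that filter 35.1% of all genes passed.

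**Figure D4:**
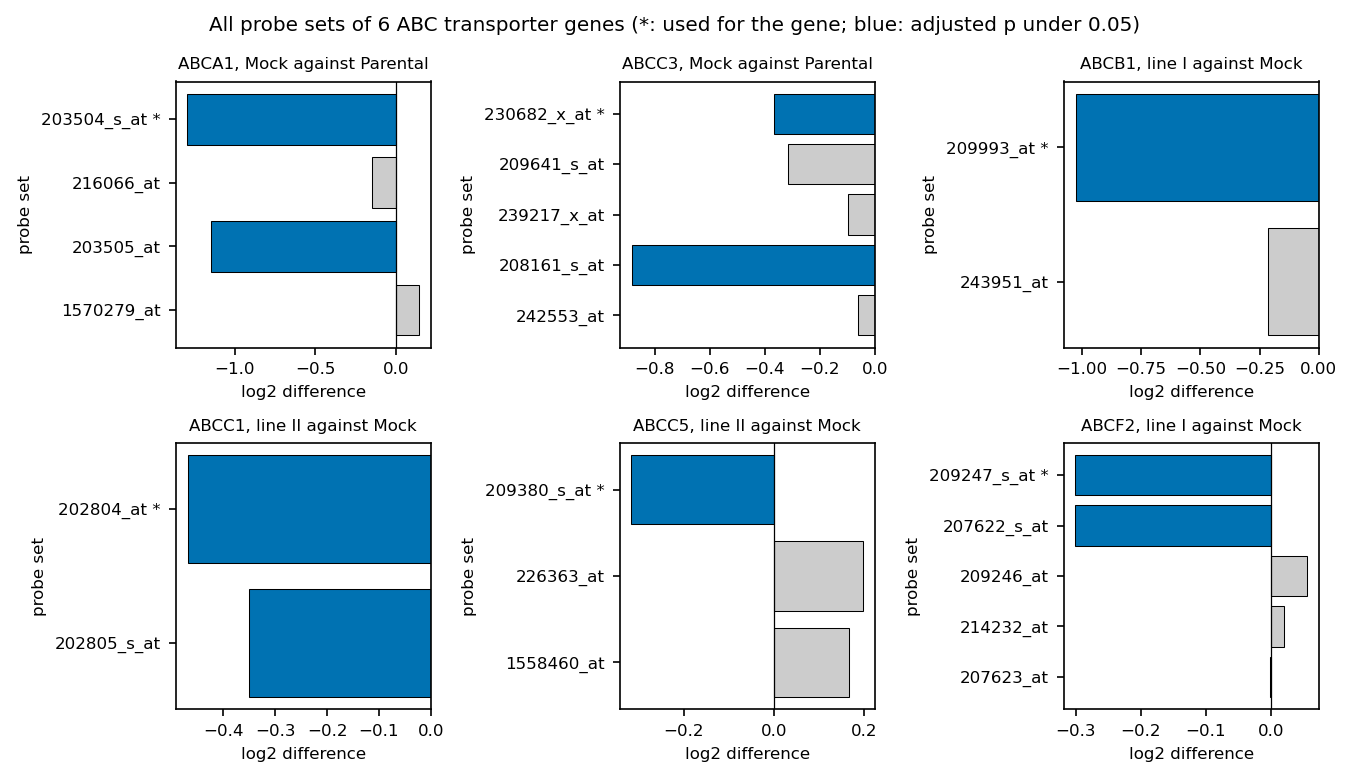
Log2 difference (horizontal axis) of every single-symbol probe set of 6 ABC genes in 1 contrast each; an asterisk marks the probe set that represents the gene, and blue bars passed limma's test. For ABCA1, ABCC3, ABCC1 and ABCF2 a second probe set passed in the same direction, for ABCB1 the second one had -0.21 and did not pass, and for ABCC5 the other bars point the other way, at 0.20 and 0.17.

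Other genes of the pathways were taken from 8 lists chosen with earlier results of these data known. Their counts stand against the share of all genes called, which in line I against Mock was 9.97% up and 13.6% down and in line II 11.0% up and 15.1% down. The lines share the Mock arrays, and several of these differences were not called against Parental, which is given beside each gene. Of 17 other ABC genes, 14 were measured, and 1 rose and none fell in line I against Mock and 3 rose and none fell in line II (medians 0.09 and 0.11, where that of all genes was 0.02). ABCC11, an exporter of cyclic nucleotides and lipophilic anions, rose by 0.35 and 0.34 against Mock (limma adjusted p = 0.0172 in each) and had 0.11 in each line against Parental. ABCG8, the partner of ABCG5 in sterol export, had 0.35 in line I (limma adjusted p = 0.059) and rose by 0.46 in line II (limma adjusted p = 0.0168), with 0.17 and 0.28 against Parental.

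In the list of cholesterol efflux genes and LXR targets, 3 of 14 rose and 6 fell in line I against Mock, and 3 rose and 5 fell in line II (medians -0.15 and -0.10). Against Parental, 1 rose and 2 fell in line I, and 1 rose and 3 fell in line II. For the desaturase SCD, Mock stood apart. SCD was higher in Mock than in Parental by 0.51 (limma adjusted p = 0.000997), and the lines differed by -0.65 and -0.69 from Mock but by -0.14 and -0.18 from Parental, which did not pass. LPCAT3, which remodels phospholipids, was lower in Mock than in Parental, at -0.67 (limma adjusted p = 7.67e-05). Its differences in lines I and II were 0.47 and 0.83 from Mock, both called, and -0.20 and 0.16 from Parental, neither called. APOA1, the acceptor of ABCA1 lipid, rose by 0.40 and 0.45 against Mock and had 0.25 and 0.29 against Parental, which did not pass.

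Of 16 regulators of drug transporter genes, 3 rose and 4 fell in line I against Mock and 3 rose and 3 fell in line II (medians 0.00080 and -0.07). The scaffold PDZK1 was lower in Mock than in Parental, at -0.92 (limma adjusted p = 2.65e-05). Lines I and II exceeded Mock by 0.76 and 0.78 and had -0.16 and -0.14 against Parental, not called. The nuclear receptor PPARG rose by 0.62 and 0.52 against Mock. Line I also exceeded Parental, by 0.41 (limma adjusted p = 0.0245), whereas the 0.32 of line II did not pass. The group means of PDZK1 (2.75 to 3.68) and PPARG (3.15 to 3.77) lay below the array medians in all 4 groups, so both signals are weak. The vitamin D receptor VDR was higher in Mock than in Parental by 0.36 (limma adjusted p = 0.0213), and the lines differed by -0.62 and -0.65 from Mock and by -0.26 and -0.29, not called, from Parental.

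Of 18 carriers of platinum, copper and drugs outside the ABC family, 0 rose and 6 fell in line I against Mock and 1 rose and 5 fell in line II (medians -0.07 and -0.14). Against Parental, 1 rose and 2 fell in line I, and 3 rose and 4 fell in line II. The copper pump ATP7B, which has been linked to cisplatin export, fell against both controls, by -0.32 and -0.55 against Mock and by -0.50 and -0.73 against Parental (limma adjusted p = 0.00179 and 0.000103). The nucleoside carrier SLC29A2 fell by -0.34 and -0.26 against Mock and had -0.09 and -0.01 against Parental, not called. The organic anion carrier SLCO3A1 fell by -0.21 and -0.33 against Mock. Against Parental it had -0.11 in line I, not called, and -0.24 in line II (limma adjusted p = 0.0366).

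Of 16 genes of glutathione conjugation, which supplies substrates to the MRPs, 6 rose and 0 fell in line I against Mock and 5 rose and 3 fell in line II (medians 0.13 and 0.04). Against Parental, 6 rose and 2 fell in line I, and 5 rose and 3 fell in line II. GSTM4 rose by 0.57 and 0.88 against Mock and by 0.72 and 1.03 against Parental, and GSTM1 by 0.42 and 0.67 and by 0.45 and 0.70, all called. GSTM1 and GSTM4 are near-identical in sequence, and probes may not tell them apart. GSTO1 rose by 0.38 and 0.24 against Mock and by 0.27 in line I against Parental, where line II had 0.12 and did not pass.

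Of 12 haem and mitochondrial iron genes, 0 rose in either line against Mock, and 3 fell in line I and 5 in line II (medians -0.09 and -0.16). Mock itself had 4 up and 1 down against Parental, where 9.78% of all genes rose and 5.23% fell. Against Parental, 2 rose and 3 fell in line I, and 0 rose and 2 fell in line II. CPOX, an enzyme of haem synthesis, fell against both controls, by -0.27 and -0.39 against Mock and by -0.31 and -0.43 against Parental (limma adjusted p = 0.0149 and 0.0019). FECH, which inserts iron into protoporphyrin, was higher in Mock than in Parental by 0.20 (limma adjusted p = 0.0347), and the lines had -0.23 and -0.22 against Mock, both called, and -0.03 and -0.02, not called, against Parental. The cysteine desulfurase NFS1 was likewise higher in Mock, by 0.33 (limma adjusted p = 0.0029), and the lines had -0.26 and -0.29 against Mock and 0.07 and 0.04, not called, against Parental.

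Of 13 peroxisomal genes, 2 rose and 1 fell in line I against Mock and 1 rose and 5 fell in line II (medians -0.01 and -0.15). Against Parental, 3 rose and 0 fell in line I, and 2 rose and 3 fell in line II. The phytanoyl-CoA hydroxylase PHYH rose by 0.51 and 0.35 against Mock and by 0.32 in line I against Parental, where line II had 0.16 and did not pass. The import factor PEX14 fell by -0.38 and -0.28 against Mock and had -0.19 and -0.09 against Parental, not called. Of 12 partners of ABCE1 and ABCF1 in ribosome recycling and eIF2 function, 0 rose and 6 fell in line I against Mock and 1 rose and 2 fell in line II (medians -0.18 and -0.11). Against Parental, 1 rose and 2 fell in each line. The termination factor GSPT1 fell by -0.26 and -0.18 against Mock and by -0.24 in line I against Parental, where line II had -0.15 and did not pass. GCN1 fell by -0.31 in line I against Mock and had -0.07 against Parental. The eIF2 subunit EIF2S3 fell in line II, by -0.40 against Mock and -0.26 against Parental (limma adjusted p = 0.0117).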

How the data were processed

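Each deposited value is a log2 level of 1 probe set on 1 array, computed by the authors with RMA and R 2.6.0 (submitters' processing notes). Per the labels, 6 µg of total RNA was labelled. Chip definition and filters: not given in the sources used here. Scanner files were not used. No further normalization was applied. Platform annotation named 41091 probe sets with a single gene symbol (1801 had several and 11777 none; 62 of 54675 are controls). Groups were taken from the labels.

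The test was limma 3.58.1 under R 4.3.3 (group-means model on all 12 arrays, lmFit and eBayes, 8 residual and 5.19 prior degrees of freedom), with Benjamini-Hochberg adjustment over 19775 genes. It was tried on simulated data. The members, gene lists and tests were chosen with earlier results of these data known.

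Single-array values were to be printed for ABCB1, ABCC1, ABCG2 and for members past the F test whose group means differ by at least 0.5. ABCB6 and ABCD3 were added after their values were seen. From the other lists, genes past the test in both lines in one direction, at most 3 a list, and the largest change in either line were named. Alternatives were another probe set rule, filters on dim genes, rescaling, another variance model, fitting the compared groups alone, blocking on the replicate number, a stricter threshold and leaving out each array. Reading each probe set alone was added after the data were seen. Promoter windows are RefSeq's. Python 3.11.15 with matplotlib 3.10.9 drew the figures.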

Additional observations from a re-analysis of the deposited data

Results flagged for a closer look

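The differences from Mock were unequal in the CXCR4 lines for 5 ABC genes, by limma's direct test of line I against line II (adjusted p over all genes). ABCB10 differed by -0.49 (adjusted p = 0.00754), being -0.97 in line I and -0.48 in line II against Mock. ABCC1 differed by 0.34 (adjusted p = 0.0267), from -0.13 and -0.47. For ABCG2 the difference was 0.30 (adjusted p = 0.0423), from -0.05 and -0.35. ABCC3 had 0.22 (adjusted p = 0.0384), from 0.34 and 0.12, and ABCF3 had -0.23 (adjusted p = 0.0464), from -0.19 and 0.04. Leaving out each of the 12 arrays in turn, ABCB10 kept its call in all 12 fits. ABCC1 kept it in 8, ABCC3 in 4, ABCG2 in 3 and ABCF3 in 2. With the lines fitted alone 1 of the 30 passed (3.33%), below the 3.72% of all genes.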

How the results depend on the processing

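Of 57 calls of ABC genes over the 6 contrasts, 32 held without any one of the 12 arrays, and 17 of them also under every other alternative in which the gene was tested, the stricter threshold included. In 11 the sign turned under another choice of probe set. Without probe sets ending in _x_at or _s_at 24 ABC genes were tested, and the calls fell to 4 in line I against Mock (16.7% of them, below the 18.9% of all genes tested so), 4 in Mock against Parental (16.7% against 12.3%), 1 between the lines (4.17% against 5.06%), 5 in line I against Parental (20.8% against 13.2%), 7 in line II against Parental (29.2% against 13.8%) and 10 in the F test (41.7% against 29.1%). There ABCA1, read by another probe set, had 0.015 in line I and 0.12 in line II against Parental. The mean of probe sets gave 6 of 30 in line II against Parental (15.3% of all genes). At an adjusted p under 0.01 the counts of 30 were 5 and 7 for lines I and II against Mock (13.09% and 13.04% of all genes), 5 for Mock against Parental (8.02%), 1 between the lines (2.98%), 5 for line II against Parental (8.91%) and 11 in the F test (20.6%). In line II against Mock, quantile normalization gave 8 of 30 (20.9% of all genes) and fitting the compared groups alone 8 (15.3%). Between the lines, a mean log2 of at least 6 gave 9 of the 16 tested, where 22.7% of all genes passed, centring 2 of 30 (6.08% of all genes), and the compared groups alone 1 of 30 (3.33%, below the 3.72% of all genes). The filter at a mean log2 of 6 raised the share of all genes elsewhere too. With it 10 of 16 ABC genes passed in line I against Mock (49.0% of all genes) and 9 in line II (47.3%). In Mock against Parental 8 passed (37.3%), in lines I and II against Parental 8 each (40.7% and 39.4%), and in the F test 15 (69.3%). The range without single arrays was 5 to 11 for line I and 9 to 14 for line II against Mock, 5 to 11 for Mock against Parental, 1 to 5 between the lines, 7 to 10 and 6 to 12 for the lines against Parental, and 15 to 20 in the F test. The share of all genes without single arrays was 16.8% to 26.2% and 18.5% to 30.7% for lines I and II against Mock. It was 10.5% to 16.7% for Mock against Parental and 3.89% to 9.10% between the lines. For lines I and II against Parental it was 12.2% to 18.5% and 11.2% to 20.4%. Among all called genes, the share that rose in line I against Mock was 42.2%, and 53.7% after quantile normalization and 23.8% after centring. For line II it was 42.2%, 54.6% and 21.3%, for Mock against Parental 65.2%, 54.8% and 75.2%, and for line II against Parental 44.1%, 53.6% and 31.1%. With the replicate block the counts were 8, 13, 10, 2, 9 and 11 for lines I and II against Mock, Mock against Parental, the direct comparison of the lines, and lines I and II against Parental, and 15 in the F test. The numbers are not shown to pair the arrays, since of 18 same-numbered pairs 2 had deviations correlated above 0.1 (range -0.11 to 0.15). For the 11 ABC genes below the array medians, weak signal limits what can be detected. Where no cause is given here, it was not tested.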
